A study of Mus musculus with 4 samples.

Results

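Ubiquitin conjugation and deubiquitination genes were examined in a mouse Th1 T cell clone, with resting cells set against anergic cells. They were chosen by name: a probe set belonged when its only gene symbol began with Ube and a digit from 1 to 4, with Usp, Rnf, Trim or Cul and a digit, or with Fbx, or was Itch, Nedd4, Nedd4l, Cbl or Siah2. Usp18, Usp9x and Usp9y were left out. This gave 119 of the 8251 genes that the array names, measured by 162 probe sets. Each gene was represented by its brightest probe set, by mean log2 value over the 4 arrays. A filter on low values kept 103 of these 119 genes and 5583 genes in all. The study hybridised RNA of a Th1 clone, a CD4 helper T cell line grown from a single cell, to 4 arrays. Control arrays 1 and 2 hold the normal resting clone, and anergic arrays 1 and 2 hold the clone after plate-bound antibody against CD3 had made it anergic, a state in which T cells respond poorly to a new stimulus. The labels give no strain, duration of treatment or clone name, nor any sign that paired arrays of a group stem from independent cultures. The p-values therefore reflect only how far these arrays vary, possibly for technical reasons.

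Ubiquitin is a small protein that is joined to other proteins in a relay of enzymes. An activating enzyme (E1) charges ubiquitin, a conjugating enzyme (E2) carries it, and a ligase (E3) picks the substrate. HECT ligases take ubiquitin onto themselves first, and RING and TRIM ligases pass it on directly from the E2. Cullins are scaffolds of ligases, and in those built on Cul1 F-box subunits bind the substrate. Chains of ubiquitin send proteins to the proteasome or alter their signalling, and ubiquitin-specific proteases (Usp) take the chains off again. In T cells the ligases Itch, Cbl-b, Nedd4 and GRAIL are known for dampening T cell receptor signalling in anergy. The genes of Cbl-b and GRAIL (Cblb and Rnf128) were not analysed here, and no E1 gene was among the members.

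The arrays had been scaled alike, with trimmed means of 500.3 on each. Their medians still differed, at 146.5 and 191.2 on the control arrays and 134.15 and 175.8 on the anergic arrays. The 9 spike-in probe sets were brightest on control array 2, with a geometric mean of 1972 against 870.4 to 1014 on the other arrays. The 6 T cell markers measured summed to 40084 and 33948 in control and 38717 and 31363 in anergic cells. None of them passed the test, with differences from -0.40 (Cd3g) to 0.68 (Cd3d). The summed intensity of 5 B cell markers was 545 and 718 in control and 447 and 647 in anergic cells. That of 7 macrophage and dendritic cell markers was 1215 and 1514 in control and 1449 and 1947 in anergic cells. Of these 7, Cd68 rose from 81.2 ± 14.4 to 515 ± 24.0 (SD, n = 2 each; limma adjusted p = 0.0103), Lyz2 was at 129 and 73.3 against 11.7 and 11.4, and no marker was listed at 0. The sums of 6 granulocyte and mast cell markers were 509 and 726 against 289 and 604, and those of 5 stromal markers 1666 and 1866 against 1346.5 and 2072. The part of such cells in the results was not tested. A difference in a bulk sample cannot tell fewer cells of a type from less RNA per cell.

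No member passed the test between anergic and control cells in the main fit, which has no term for the replicate number. With that term some members passed, as given in the closing section on processing. In limma, a linear model that shares its estimate of spread among all genes, 0 of 103 members had an adjusted p under 0.05 (Benjamini-Hochberg over 5583 genes), where 2.17% of all genes tested passed (1.33% higher and 0.842% lower in anergic cells). The lowest adjusted p of a member was 0.108, for Rnf19a. At an unadjusted p under 0.05 there were 9 members, or 8.74%, of which 6 were higher and 3 lower, against 12.7% of all genes tested (6.32% higher and 6.38% lower). The fit without an intensity trend also called 0 members and gave 9 at the unadjusted level (8.74%, against 11.6% of all genes tested). Fits without 1 of the control arrays are given for single members below as differences only. In those fits the lone control array was assumed to vary like the anergic pair.

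The members' differences were spread like those of other genes. Differences are given throughout as anergic minus control on the scale log2(intensity + 29.15), which understates the change of dim genes. The median of the 103 members was -0.06 and that of all genes tested was -0.09, and 46 members lay above 0, or 44.7%, against a background of 41.9%. Both anergic arrays lay outside the range of both control arrays for 43 members, or 41.7%, against a background of 41.3%. Of these, 22 were higher (21.4%, background 17.3%) and 21 lower (20.4%, background 24%). A difference of at least 1, a 2-fold change, was reached by 3 members (2.91%, background 6.07%), namely Rnf19b, Rnf10 and Usp14. A difference of at least 0.5 was reached by 21 members (20.4%, background 25.9%). A member's median gap was 0.34 for the control pair and 0.30 for the anergic pair, and its median difference between groups was 0.31 in size. For all genes tested these values were 0.37, 0.33 and 0.28. A gap is between single arrays and a group difference between means of 2 arrays, so their sizes are not directly comparable. The 95% confidence interval lay within a 2-fold change in both directions for 50 members and reached beyond it for 53. The smallest difference that passed among all genes in this fit was 0.98.

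**Figure D1:**
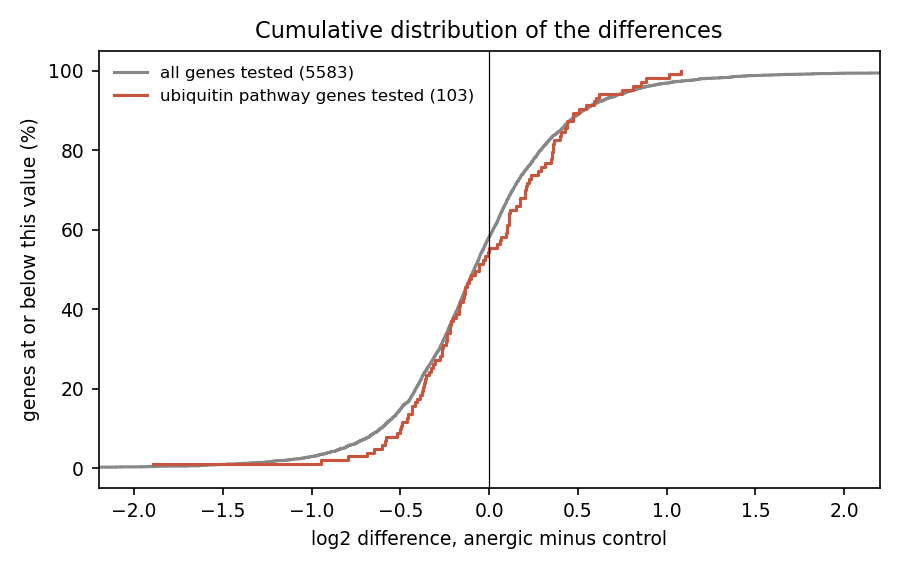
Cumulative distribution of log2 differences (x axis, anergic minus control) as the percentage of genes at or below each value (y axis), for the 103 tested members and all 5583 genes tested; the x axis ends at -2.2 and 2.2, beyond which some of all genes lie. The lines run close together around a median of -0.06 and -0.09, and the members reach from -1.90 to 1.08.

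The families leaned to different sides. The E2 genes and the F-box genes had medians above 0 (0.21 over 19 and 0.23 over 14 genes), and those of the TRIM genes (-0.35 over 12), the cullins (-0.21 over 4) and the ubiquitin-specific proteases (-0.21 over 20) were below. The 30 RING finger genes were centred at 0.03 and the 4 HECT and E4 genes at 0.02. Taken against 0, these signs held in every alternative for the E2, F-box, TRIM, cullin and protease medians. The fits without a trend and with the replicate term leave the differences unchanged, so they could not change a sign. The ranges of the 5 medians were 0.08 to 0.35, 0.06 to 0.34, -0.54 to -0.11, -0.29 to -0.10 and -0.22 to -0.03. The RING finger median turned below 0 in at least 1 alternative (range -0.04 to 0.14), as did the HECT and E4 median (-0.25 to 0.29). Centring the arrays on their medians moved the median of all genes from -0.09 to 0.02. Leaving out anergic array 2 moved it to -0.15, and in that setting alone the protease median (-0.13) was not below it. These leanings are descriptions: no family was tested as a set, and none held a gene that passed.

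**Figure D2:**
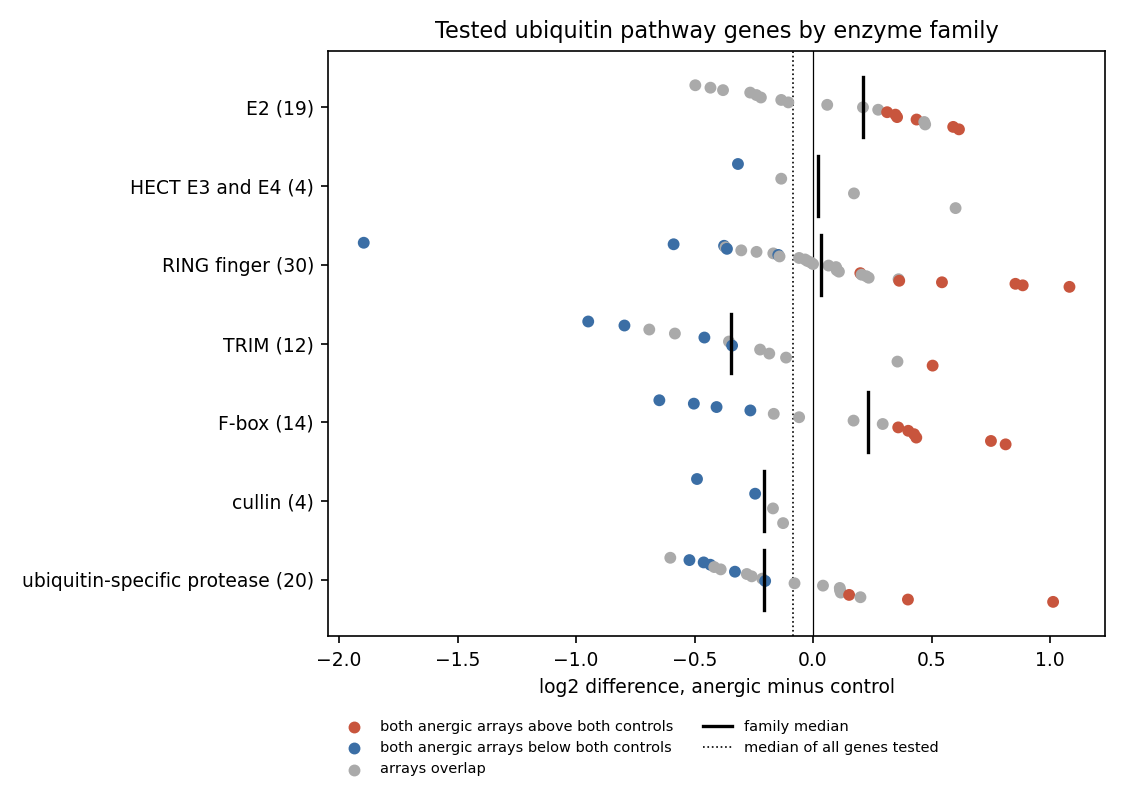
Log2 difference (x axis, anergic minus control) of each tested member by enzyme family (y axis, number of tested genes in brackets); points are genes, black bars family medians and the dotted line the median of all genes tested. Colour marks genes whose arrays did not overlap: the E2 family has 6 higher and 0 lower, and TRIM has 1 higher and 4 lower.

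Among the E2 genes, 19 of 21 were tested and 11 were above 0 (41.9% of all genes tested were). For 6 of them both anergic arrays exceeded both control arrays, and for 0 both were lower (background 17.3% and 24%). Ube2h, an E2 that modifies histones in the test tube, was at 666 and 1038 on the control arrays and at 1094 and 1469.5 on the anergic arrays. The groups were separate, but their nearest arrays lay closer than the arrays within either group. Its difference was 0.59 ± 0.30 (SE; adjusted p = 0.478), with 0.65 at its other probe set. Ube2s, which extends chains for the anaphase-promoting complex, was at 295 and 465 in control and 631 and 542 in anergic cells, a difference of 0.62 (95% interval -0.10 to 1.34, adjusted p = 0.499). Ube2b, the mouse counterpart of yeast Rad6 in DNA damage tolerance, was at 902 and 1205 against 1443 and 1401 (0.44, interval -0.14 to 1.02). The partners Ube2n and Ube2v1, which together build chains that signal rather than degrade, were both higher on each anergic array. Ube2n was at 1887 and 1982 against 2320.4 and 2501, and Ube2v1 at 2378 and 2657 against 3142 and 3303. Their differences of 0.31 and 0.35 had intervals that include 0 (-0.20 to 0.83 and -0.15 to 0.86). The 2 E2 genes below the filter were Ube2v2 and Ube2w, with intensities of 53.2 to 147.2.

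Of the ligases introduced above as known from anergy, only Itch was tested. Neither Itch nor the other tested ligases picked by name passed. Itch, a HECT ligase whose loss causes inflammatory disease in mice, was at 847 and 825 on the control arrays and at 543 and 813 on the anergic arrays. The groups did not overlap, but only anergic array 1 was clearly below the controls, and anergic array 2 was close to control array 2. The difference was -0.32 (interval -0.97 to 0.33, adjusted p = 0.764), and -0.04 without anergic array 1. Nedd4l, a relative of Nedd4 known for regulating sodium channels, was at 136 and 126 against 79.1 and 168, with overlapping groups (-0.13, interval -1.20 to 0.93). The suffix of its probe set marks it as one that can also bind transcripts of related genes. Nedd4 was below the filter, at 45.9 and 49.9 in control and 41.7 and 61.3 in anergic cells, so no difference was tested. Its other probe set was lower in anergic cells with no overlap, at 55.4 and 123.5 against 22.9 and 17.3. That probe set was below the filter as well and was not tested. Cbl, the RING ligase of activated tyrosine kinase receptors, was at 234 and 303 against 204 and 333. Its groups overlapped fully, and the difference of -0.02 (interval -0.86 to 0.81) changed sign with quantile normalization (0.079) and with centring (0.083). Siah2, a RING ligase that controls the oxygen-sensing prolyl hydroxylases, was at 282 and 240.4 against 266 and 297 (0.10, interval -0.66 to 0.85). Ube3a, the Angelman syndrome ligase, ranged from 41.1 to 188 in control cells alone (0.60, interval -0.72 to 1.92). Ube4b, an E4 factor that lengthens chains, overlapped as well (0.17, interval -0.57 to 0.92). None of these intervals excludes a change of 1.5-fold in at least 1 direction.

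**Figure D3:**
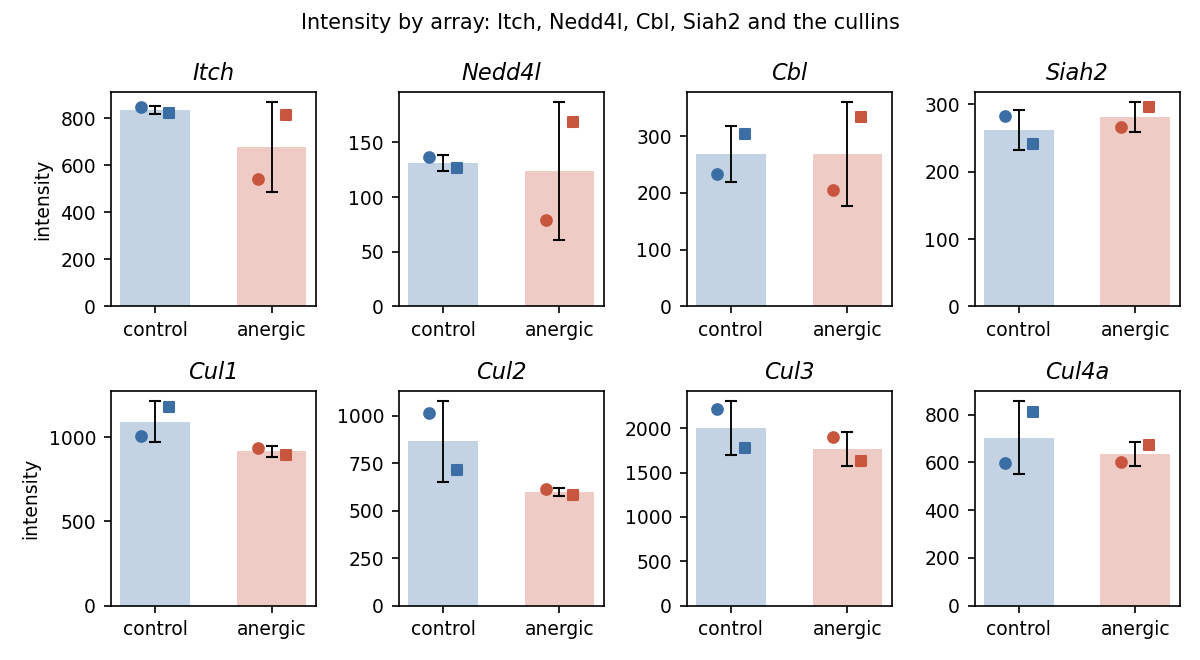
Intensity (y axis, linear, arbitrary units) of Itch, Nedd4l, Cbl, Siah2 and 4 cullin genes in control and anergic cells (x axis); circles are arrays numbered 1, squares arrays numbered 2, bars the means and error bars the SD of 2 arrays. Cul2 and Cul1 have both anergic arrays below both control arrays, and in Itch anergic array 2 (813) lies close to control array 2 (825).

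The RING finger genes held the members with the most extreme differences in both directions. Rnf19a, an E3 of the RING-between-RING type first known as dorfin, was at 1977 and 1671 on the control arrays and at 3569 and 3203 on the anergic arrays. The anergic arrays were well above the controls, and the gap between groups exceeded that within each. Its difference was 0.88 ± 0.23 (SE; unadjusted p = 0.00375, adjusted p = 0.108), or 1.85-fold. It ranged from 0.77 to 1.004 with 1 array left out, with the higher value without control array 1. Its close relative Rnf19b, a ligase of natural killer cells and macrophages, was lower in anergic cells, at 2481 and 449 in control and 323 and 217 in anergic cells. Control array 1 alone held the high value, more than 5 times that of control array 2. The fitted difference of -1.90 ± 0.62 (SE; adjusted p = 0.204) therefore varied from -0.70 without control array 1 to -3.09 without control array 2. Probe sequences were not examined, so signal shared between these relatives was not tested.

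Rnf10 and Rnf181 were also higher on both anergic arrays, without passing the test. Rnf10, a RING protein linked to ubiquitination of stalled ribosomes, was at 1562 and 3087 in control and 3791 and 5789 in anergic cells. Arrays numbered 2 were the brighter in both groups, and control array 2 was not far below anergic array 1. The difference was 1.08 ± 0.34 (SE; adjusted p = 0.184), at 0.60 without control array 1 and 1.57 without control array 2. Rnf181, a small RING ligase, was at 2131 and 1644 against 4089 and 2839, here with arrays numbered 1 the brighter. Its difference was 0.85 ± 0.27 (SE; adjusted p = 0.183), between 0.59 and 1.12 with 1 array left out (1.04 without control array 1). Rnf145, a membrane ligase of cholesterol control, was at 1189 and 1354 against 2101 and 1652 (0.54, interval -0.02 to 1.11). Rnf123, which cooperates in degrading a cell cycle inhibitor, was dim at 125 and 222 against 107 and 97.3 (-0.59, interval -1.60 to 0.43). Of the 30 tested RING finger genes, 6 were higher and 5 lower with no overlap between groups, where the background is 17.3% and 24%.

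**Figure D4:**
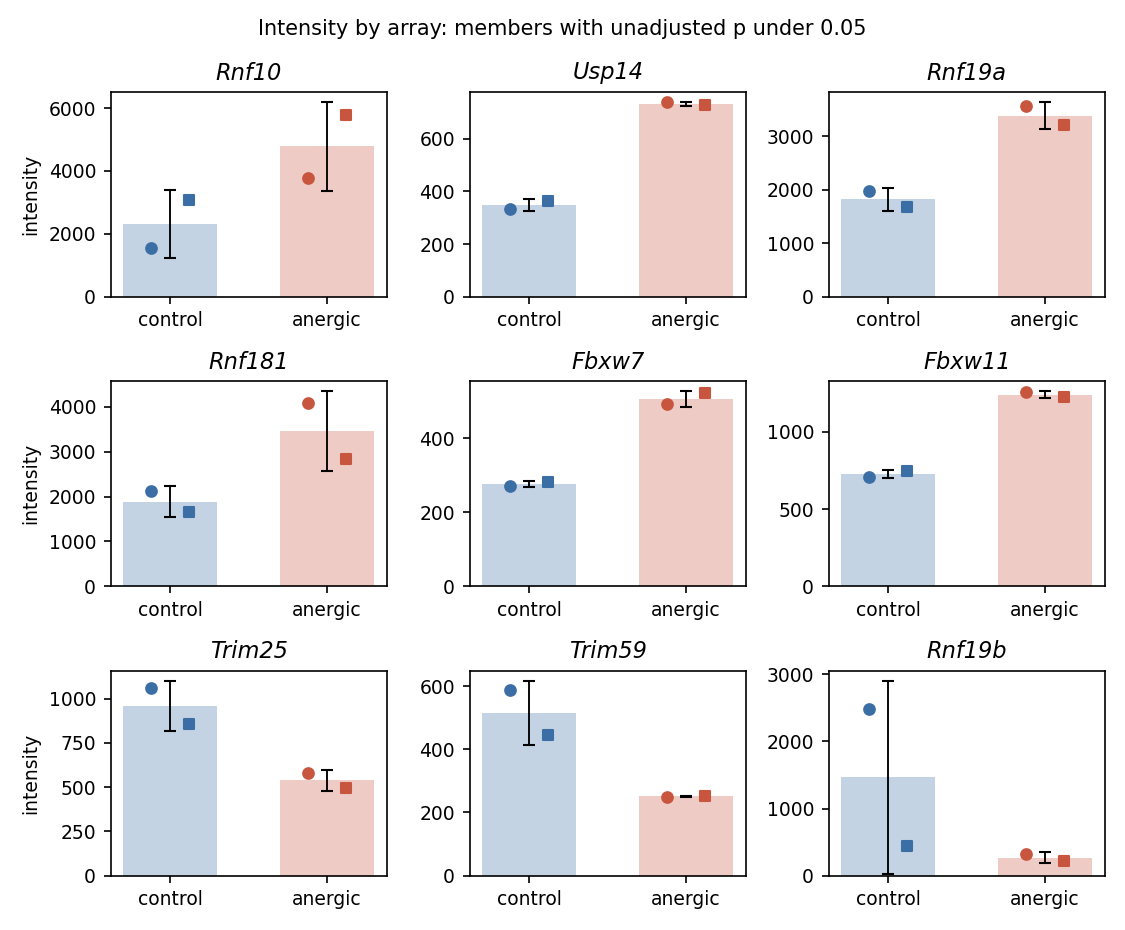
Intensity (y axis, linear, arbitrary units, each panel on its own scale) in control and anergic cells (x axis) of the 9 members with an unadjusted p under 0.05; circles are arrays numbered 1, squares arrays numbered 2, bars the means and error bars the SD of 2 arrays. Usp14, Fbxw7 and Fbxw11 have tight groups that lie apart, and Rnf19b has control arrays at 2481 and 449.

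No TRIM gene passed the test. TRIM proteins are RING ligases with a coiled coil, and many act in antiviral defence. Of 12 tested, 2 were above 0 (41.9% of all genes were), and in 4 both anergic arrays were below both control arrays (background 24%). The leaning rested on anergic array 1: without it 6 were above and 6 below 0. Trim59, a membrane-anchored member, was at 587 and 445 in control and 249.6 and 252 in anergic cells. The anergic arrays were nearly identical and far below either control. The difference was -0.95 ± 0.32 (SE; adjusted p = 0.218), between -1.14 and -0.76 with 1 array left out. Trim25, which activates the RNA sensor RIG-I and is a ligase of the ubiquitin-like protein ISG15, was at 1059 and 857 against 578 and 497, with no overlap (-0.80 ± 0.28, SE; adjusted p = 0.241). Trim21, the intracellular antibody receptor, was at 609 and 621 against 373 and 517 (-0.46, interval -1.12 to 0.21), and its other probe set showed -0.85. Trim41 was the exception with separate groups, at 298 and 216 against 379.8 and 367 (0.50, interval -0.24 to 1.25).

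The other genes of ISG15 conjugation are set beside Trim25, a choice made after their values were seen. Isg15 itself was at 334 and 866 in control and 241 and 231 in anergic cells, a difference of -1.11 ± 0.42 (SE; adjusted p = 0.3) with the spread in the control pair. Uba7, the E1 of ISG15, was at 2340 and 3211 against 1508 and 1721, with no overlap (-0.76 ± 0.25, SE; adjusted p = 0.218). Ube2l6, its E2, followed the array number rather than the group, at 280.4 and 52.1 against 148 and 48.8 (-0.43 ± 0.69, SE). None of the 4 had an adjusted p under 0.05 in this limma test. Without control array 1 Isg15 was at -1.76 and Uba7 at -0.98. Without control array 2 they were at -0.46 and -0.53.

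Cullins are ligase scaffolds, and F-box proteins are the substrate arm of the ligases built on Cul1. The 4 tested cullins were all below 0, and 3 of 4 without control array 2. Of all genes tested, 41.9% lay above 0 with all 4 arrays. Cul2, the scaffold used by the VHL tumour suppressor, was at 1015 and 716 in control and 612 and 586 in anergic cells (-0.49, interval -1.13 to 0.15, adjusted p = 0.557). Cul1, the scaffold of F-box proteins, was at 1007 and 1176 against 938 and 892 (-0.24, interval -0.81 to 0.33). These groups did not overlap, while those of Cul3, which pairs with BTB proteins (-0.17), and Cul4a, a scaffold in DNA repair (-0.13, and 0.085 without control array 2), did. Cul7 was below the filter, at 48.3 to 126.4. Of 14 tested F-box genes 8 were above and 6 below 0 (7 and 7 without anergic array 1), with 6 higher and 4 lower with no overlap (background 17.3% and 24%). Fbxw7, which marks Myc, cyclin E and Notch for degradation, was at 270.3 and 282 in control and 492 and 521 in anergic cells. Both pairs were tight and lay far apart, and the difference was 0.81 ± 0.30 (SE; adjusted p = 0.285), between 0.77 and 0.85 with 1 array left out. Fbxw11, which marks I-kappa-B and beta-catenin, was at 707 and 746 against 1257 and 1226 (0.75 ± 0.25, SE; adjusted p = 0.219). Its second probe set was at 672 and 571 against 1034 and 1194, a difference of 0.81. Fbxo3 (0.43) was separate too, but its second tested probe set had the opposite sign (-0.40). Fbxo21 (-0.50) and the iron sensor gene Fbxl5 (-0.65) were lower, each with 1 control array close to the anergic arrays.

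The promoters of Fbxw11 and Trim25, which had differences of opposite sign, are shown from RefSeq (GRCm38.p6) as the 250 bases before the start site. Both lie on the plus strand, at chr11:32642305-32642554 for Fbxw11 and chr11:88999153-88999402 for Trim25. Capitals mark matches on either strand to GGAAA (the NFAT core), TGANTCA (AP-1), CACGTG (E-box) and a loose NF-kB pattern, GGG and CC with any 5 bases between.
Fbxw11: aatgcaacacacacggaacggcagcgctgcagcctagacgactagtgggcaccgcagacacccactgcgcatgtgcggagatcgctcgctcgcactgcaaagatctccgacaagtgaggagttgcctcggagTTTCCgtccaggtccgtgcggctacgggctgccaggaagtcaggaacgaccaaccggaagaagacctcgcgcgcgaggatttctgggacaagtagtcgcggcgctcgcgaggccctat
Trim25: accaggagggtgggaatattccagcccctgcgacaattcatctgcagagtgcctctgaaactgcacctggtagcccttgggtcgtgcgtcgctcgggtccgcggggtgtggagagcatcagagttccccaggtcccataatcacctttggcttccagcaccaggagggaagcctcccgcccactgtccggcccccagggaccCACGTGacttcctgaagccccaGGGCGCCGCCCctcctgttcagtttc
Fbxw11 held 1 match to GGAAA, on the minus strand, and none to the others. Trim25 held 1 CACGTG and 2 matches to the loose NF-kB pattern that overlap each other. In the table, 88 of the 119 members had at least 1 promoter, 119 promoters in all. Of these, 47.1% held GGAAA, 4.2% TGANTCA, 6.72% CACGTG and 62.2% the loose NF-kB pattern. The shares over all 32851 promoters of that length were 55.6%, 6.75%, 6.02% and 45.8%. A match is a string of letters and not a shown binding site.

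Of the 20 tested ubiquitin-specific proteases 8 were above 0, near the 41.9% of all genes tested, and without anergic array 1 the split was 10 to 10. Usp14 had the largest difference among them. Usp14, which trims ubiquitin from substrates at the proteasome, was at 332 and 365 on the control arrays and at 738 and 726 on the anergic arrays. Each pair agreed closely and the anergic arrays were well above the controls. The difference was 1.01 ± 0.28 (SE; unadjusted p = 0.00525, adjusted p = 0.127), between 0.95 and 1.07 with 1 array left out. Its other probe set was at 9.9 to 11.5 on all arrays, below the filter. Usp48, a nuclear protease, was at 3209.7 and 2302 against 1971 and 1961 (-0.46, interval -1.02 to 0.10). Usp3, a histone deubiquitinase, was at 4117 and 2822 against 2484 and 2550.5 (-0.43, adjusted p = 0.559), and its other probe sets showed -0.47 and -0.40. Usp2 was at 191 and 210.5 against 113 and 151 (-0.52, interval -1.42 to 0.38). Usp7, the protease of Mdm2 and p53, was at 859.9 and 869.7 against 655 and 711 (-0.33, interval -0.91 to 0.25). In all, 3 of 20 proteases were higher and 5 lower with no overlap, near the background of 17.3% and 24%.

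**Figure D5:**
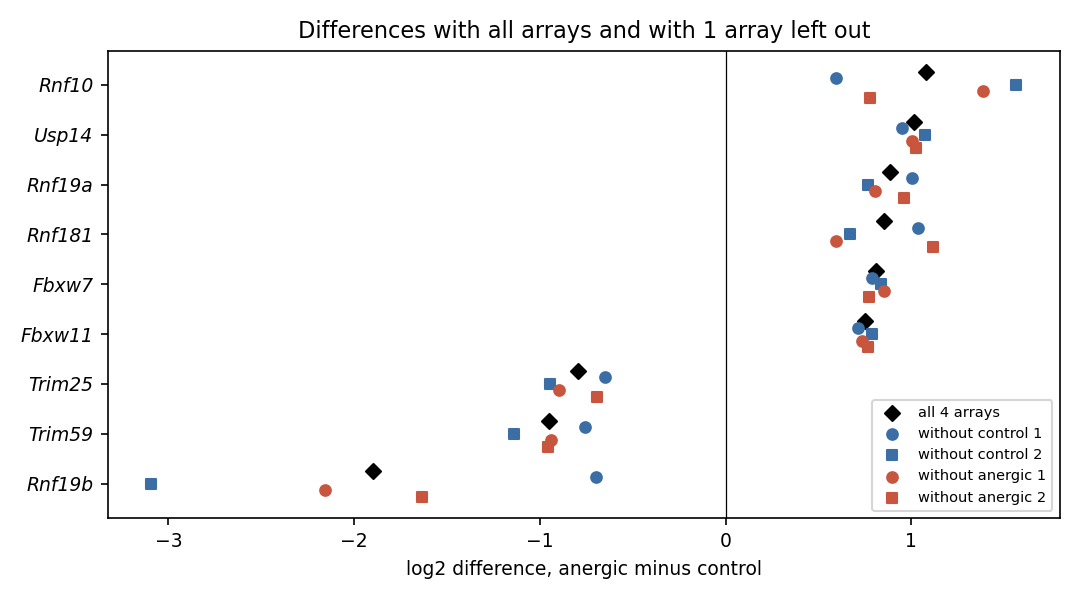
Log2 difference (x axis, anergic minus control) of the 9 members with an unadjusted p under 0.05 (y axis), with all 4 arrays and with each array left out in turn. Usp14, Fbxw7 and Fbxw11 hardly move, Rnf10 spans 0.60 to 1.57, and Rnf19b spans -3.09 to -0.70.

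Several members had more than 1 probe set. Of 21 members with at least 2 tested probe sets, 12 had all of them on the same side of 0 and 9 did not. None of these 9 had a probe set with an unadjusted p under 0.05. Over probe sets, 0 of 126 tested passed in limma after adjustment (lowest adjusted p = 0.149), and 12 had an unadjusted p under 0.05. The matching shares over all 7453 tested probe sets were not counted. These counts and the agreement in sign therefore have no background to be read against. The 16 members below the filter had intensities between 1.9 and 192.5. At the probe sets used, the groups did not overlap in 1 of these genes, Usp12. It was at 21.4 and 5.1 against 1.9 and 3.9, below the filter's floor of 92.4.

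Other ubiquitin pathway genes, listed by function, held 1 gene that passed among 65 tested, where 2.17% of all genes did. Of 71 on the array 65 were tested: 0 rose and 1 fell in limma, and 6 were higher and 6 lower at an unadjusted p under 0.05 (18.5%, background 12.7%). The gene that fell was Cops3, a subunit of the COP9 signalosome, which removes the activating NEDD8 tag from cullins. It went from 723 and 1033 to 244 and 349, a difference of -1.48 ± 0.32 (SE; adjusted p = 0.0493). The call was lost when control array 2 was left out (-1.23, adjusted p = 0.0755). Leaving out an anergic array ended it too, at -1.24 (adjusted p = 0.345) for the first and -1.71 (adjusted p = 0.0724) for the second. It was also lost in 6 of the other settings, with adjusted p-values from 0.0503 to 0.143. Eloc, the elongin C adaptor of Cul2 ligases, was at 818.5 and 550.3 against 1325.5 and 1497 (1.04 ± 0.28, SE; adjusted p = 0.116). Dtx2, a ligase that modifies Notch signalling, was at 523 and 566 against 1325 and 1097 (1.11 ± 0.27, SE; adjusted p = 0.0763). Anapc5, a subunit of the anaphase-promoting complex, was at 4493 and 3732 against 2044 and 2213 (-0.94 ± 0.23, SE; adjusted p = 0.0854). Tnfaip3, which edits ubiquitin chains and restrains NF-kB, was at 1179 and 2066 against 3203 and 3209.9 (1.02 ± 0.29, SE; adjusted p = 0.132). Sae1, a subunit of the SUMO E1 (0.47), Sumo3 (-0.29) and the protease gene Josd2 (-0.54) had intervals that include 0. The adaptors of Itch, named after their values were seen, were not alike. Ndfip1 was at 5135 and 6324 against 5913 and 6267 (0.09), and Ndfip2 at 165 and 234 against 487.5 and 431 (1.11, interval 0.35 to 1.87, adjusted p = 0.17).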

How the data were processed

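Trizol extracts of total RNA were labelled as biotinylated cRNA, per the labels' protocols. The authors deposited linear-scale intensities of 12488 probe sets. Not given in the sources used here: scanner software, background correction and probe summary. No depth is defined for arrays, and their number, 2 per group, limits the precision. Gene symbols come from the platform annotation in GEO, and those of all 119 members are listed in RefSeq's GRCm38.p6 table.

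Intensities were taken as log2(value + 29.15), the median over arrays of the 20th percentile. The 66 control probe sets were dropped, and a mean above the 40th percentile was required. The test was limma's (version 3.58.1, R 4.3.3; eBayes with intensity trend, two-sided) over all 5583 genes, with Benjamini-Hochberg adjustment at 0.05, 2 residual and 7.74 prior degrees of freedom. The fit was tested on simulated arrays that varied independently, which leaves out any variation shared by same-numbered arrays. Exact permutation of 2 against 2 arrays cannot give a two-sided p below 0.333. Alternatives were other pseudocounts, filters and scalings, the mean of probe sets, no trend, a replicate block and each array left out. In them each gene kept its probe set (unless probe sets were averaged), and the same genes were tested unless the filter changed.

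The members and lists were chosen with earlier results of these data known. Genes named are the 10 highest and 10 lowest members whose arrays do not overlap, the 3 of each family with the smallest p, Itch, Nedd4, Nedd4l, Cbl, Siah2 and the cullins, and of the other pathway genes those that passed and the 2 of each group with the smallest p. Genes outside this rule, such as Ube2n, Ube2v1, Ube2l6, Usp7, Usp12, Cul7, Ndfip1 and Ndfip2, were named after their values were seen.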

Additional observations from a re-analysis of the deposited data

How the results depend on the processing

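Leaving each array out in turn gave 50 to 280 genes of all kinds past the threshold in place of 121, with 0 to 2 members higher and 0 to 1 lower; the median of the members lay between -0.08 and 0.03. Centring the arrays gave 60 genes and a member median of 0.048 (47 of the 60 higher, against 74 of 121), and limma without an intensity trend 44 genes. Other pseudocounts, filters, quantile normalization and the mean of probe sets gave 0 members. With the replicate number as a term (the replicate block), 707 genes passed, with 6 members higher and 3 lower, which are the 9 members with an unadjusted p under 0.05. The labels do not say that equal numbers mark a shared culture or day. The deviations of same-numbered arrays correlated at 0.54 over 7453 probe sets, a hint from the data with 2 pairs only. Among the 32 members named by the rule, 6 changed sign in some setting: Cbl with quantile normalization (0.079) and centring (0.083), Nedd4l with quantile normalization (0.0044), and with 1 array left out Cbl (-0.34 to 0.29), Nedd4l (-0.57 to 0.30), Cul4a (-0.34 to 0.085), Siah2 (-0.0076 to 0.20), Ube3a (-0.21 to 1.41) and Ube4b (-0.10 to 0.44). Dim probe sets limit what can be read: 16 members were below the filter, and detection calls were not used.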
